A study of Mus musculus with 8 samples.

Results

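The mouse genes named Zfp followed by a number encode zinc finger proteins, and 185 of them were followed here in isolated hepatocytes with and without the hepatocyte Cnr1 gene, which encodes the cannabinoid-1 receptor. The genes were selected on the scanner's well above background flag: non-control probes whose RefSeq accession maps to a symbol made of Zfp and digits only were kept when the flag was set on at least 4 of the 8 arrays. Of 372 such symbols in the reference table, 342 had a probe on the array (515 probes), and 185 genes (230 probes) passed, out of 11072 genes tested and 21368 genes with a named probe. The best probe was well above background on all 8 arrays for 97 genes and on none for 112.

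The study profiled hepatocyte mRNA of male mice aged 12 to 14 weeks on a standard diet with 1-colour Agilent arrays, 4 arrays per genotype, numbered as separate samples. The labels do not say that each array is a separate mouse, and the study's legend for the hepatocyte expression data gives a smaller n than the arrays deposited, so p values measure the spread between these arrays, all of which were used. hCNR1_WT mice (strain label CNRO) and hCNR1_cKO mice (strain label CNRO Alb-Cre) were littermates from a cross of floxed CNR1 mice with mice that carry Cre under the albumin promoter, which is active in hepatocytes, and the strain label of the controls does not name the Cre. All 8 arrays lay on 1 slide, with hCNR1_WT in the upper row and hCNR1_cKO in the lower row, so the position on the slide cannot be told apart from the genotype. The Cnr1 probe was well above background on 0 of 4 hCNR1_WT and 0 of 4 hCNR1_cKO arrays, so the labels could not be checked on the deleted gene.

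Most Zfp genes encode proteins with tandem C2H2 zinc fingers, and many of these also carry a KRAB domain. KRAB zinc finger proteins bind DNA through the fingers and recruit the corepressor Trim28 (KAP1) and the histone methyltransferase Setdb1, which deposit repressive H3K9 methylation, and they are known above all for silencing retroelements. The genes arose by tandem duplication and lie in clusters of close copies. Other members have unrelated roles, such as mRNA decay, ribosome quality control or imprinting.

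Levels below are log2 processed intensities relative to each array's 75th percentile, so 0 is the 75th percentile and a difference of 1 is a 2-fold change. Each gene was measured by its brightest passing probe, differences are hCNR1_cKO minus hCNR1_WT from limma, and adjusted p values are Benjamini-Hochberg values over all 11072 genes. One array stood apart: hCNR1_cKO replicate 4 was the dimmest (75th percentile 29.3 intensity units against 62 to 139 on the other 7), had 28.6% of spots well above background against 35 to 42.3%, and had a mean correlation of 0.913 with its own group over the Zfp genes against 0.958 to 0.962 for the other hCNR1_cKO arrays. Of 12 hepatocyte markers 11 passed the detection filter, with a median difference of -0.01. Of 14 Kupffer cell markers 10 passed, all 10 were below 0 with a median difference of -0.98, 2 fell at adjusted p under 0.05 (0 to 4 with 1 array left out), and their mean level ran from 1.39 to 2.59 on the hCNR1_WT arrays and from 0.23 to 1.12 on the hCNR1_cKO arrays, with Timd4, Adgre1, Lyz2 and Cd163 not above background. The part of non-hepatocyte RNA in the Zfp differences was not tested, and in such bulk samples fewer cells of a type and less RNA per cell cannot be told apart.

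The results turn on a cluster of Zfp genes on chromosome 17, whose start regions are shown first because 5 of its 7 tested genes rose and because some of them share sequence. A cluster here is a run of Zfp genes with at most 10 other genes between neighbours. This one holds 19 Zfp symbols from Zfp677 to Zfp945, of which 18 had a probe and 7 were tested. The 250 bases before the annotated start of each of the 7 are given below from RefSeq (GRCm38.p6), each 5′ to 3′ on the gene's strand, with the E-box CACGTG in capitals. They lie at chr17:21488738-21488987 (plus strand, Zfp53), chr17:21566728-21566977 (plus, Zfp948), chr17:21909927-21910176 (minus, Zfp995), chr17:21962309-21962558 (plus, Zfp943), chr17:22165978-22166227 (minus, Zfp947), chr17:22361401-22361650 (minus, Zfp944) and chr17:22423952-22424201 (plus, Zfp946).
Zfp53: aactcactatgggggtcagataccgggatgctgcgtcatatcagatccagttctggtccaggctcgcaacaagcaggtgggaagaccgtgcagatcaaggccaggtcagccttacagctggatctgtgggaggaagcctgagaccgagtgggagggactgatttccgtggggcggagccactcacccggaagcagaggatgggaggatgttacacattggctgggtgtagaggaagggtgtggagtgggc
Zfp948: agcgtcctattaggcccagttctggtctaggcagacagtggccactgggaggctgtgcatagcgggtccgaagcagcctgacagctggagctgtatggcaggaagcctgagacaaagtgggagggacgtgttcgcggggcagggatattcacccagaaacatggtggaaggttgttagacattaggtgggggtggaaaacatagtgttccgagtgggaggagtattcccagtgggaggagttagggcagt
Zfp995: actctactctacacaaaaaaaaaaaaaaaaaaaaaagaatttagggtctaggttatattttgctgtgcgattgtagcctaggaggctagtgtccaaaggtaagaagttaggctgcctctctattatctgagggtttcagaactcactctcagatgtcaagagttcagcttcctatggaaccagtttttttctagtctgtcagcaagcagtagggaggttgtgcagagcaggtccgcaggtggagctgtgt
Zfp943: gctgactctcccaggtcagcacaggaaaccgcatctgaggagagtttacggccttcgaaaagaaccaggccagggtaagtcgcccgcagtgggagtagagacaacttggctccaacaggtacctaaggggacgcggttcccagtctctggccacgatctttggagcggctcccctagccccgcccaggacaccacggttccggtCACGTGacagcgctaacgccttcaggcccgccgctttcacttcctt
Zfp947: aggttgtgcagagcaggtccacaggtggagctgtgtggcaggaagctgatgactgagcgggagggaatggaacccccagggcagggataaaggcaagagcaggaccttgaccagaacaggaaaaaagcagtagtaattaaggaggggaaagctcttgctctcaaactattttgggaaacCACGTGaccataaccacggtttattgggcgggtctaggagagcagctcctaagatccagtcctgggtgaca
Zfp944: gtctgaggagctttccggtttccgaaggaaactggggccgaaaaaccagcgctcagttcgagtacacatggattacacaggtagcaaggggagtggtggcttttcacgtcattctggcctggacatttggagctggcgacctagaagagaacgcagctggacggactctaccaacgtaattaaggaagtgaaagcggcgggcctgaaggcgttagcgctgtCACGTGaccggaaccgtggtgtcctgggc
Zfp946: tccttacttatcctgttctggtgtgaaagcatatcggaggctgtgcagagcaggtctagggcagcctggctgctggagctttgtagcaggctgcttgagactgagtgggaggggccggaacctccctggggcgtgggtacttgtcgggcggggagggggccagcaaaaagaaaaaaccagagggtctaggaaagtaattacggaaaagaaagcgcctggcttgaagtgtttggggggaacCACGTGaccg

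The E-box and the GC box were the motifs searched for in these 250-base windows, on both strands. The E-box was found in the windows of Zfp943, Zfp947, Zfp944 and Zfp946, beginning 46, 71, 29 and 10 bases before the start, and not in those of Zfp53, Zfp948 and Zfp995. It was present in 6.02% of all 32851 windows in the RefSeq set, and in 11 (5.85%) of the 188 windows that belong to 152 tested Zfp genes. The GC box, spelled GGGCGG, was present in 51.6% of the Zfp windows and 32.7% of all windows. Between the start regions of Zfp943 and Zfp944, taken with 50 bases after the start, 169 of 169 aligned bases were identical in opposite orientation, and between those of Zfp995 and Zfp947 82 of 86 were identical. Zfp944, whose difference was -0.03, holds both the E-box and the stretch it shares with Zfp943, whose difference was 2.35. Whether either bears on the differences was not tested. Zfp960, further up the chromosome, had no entry in the promoter table.

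Of the 7 tested genes of the chromosome 17 cluster 5 rose, with differences from 2.09 to 3.35, and the median over the 7 was 2.35 against 0.08 over all genes. With the 2 genes that were below background on every array of a genotype, Zfp946 and Zfp53, at their bounds, the median was 2.09. That median is the measured difference of Zfp948, which was above background on 1 hCNR1_WT array and 4 hCNR1_cKO arrays. Of the 5 genes that rose, only Zfp943 was above background on every array. The others passed the filter in part through hCNR1_cKO arrays, where they were high. Their passing was thus not independent of the differences compared here with all genes. The background is 2.94% of all 11072 genes called higher at adjusted p under 0.05, and 3.68% (21) of the 570 genes tested on chromosome 17. Zfp946 read -3.84, -3.82, -4.66 and -3.94 in hCNR1_WT replicates 1 to 4 and -1.34, -1.10, -0.93 and 0.24 in hCNR1_cKO replicates 1 to 4. No hCNR1_WT array was well above background and all 4 hCNR1_cKO arrays were, so the level was at least 3.39-fold higher in hCNR1_cKO (difference of measured means 3.28 ± 0.36 SE, limma adjusted p = 0.00504). Zfp947 read -1.79, -1.42, -2.43 and -2.69 against 0.60, 0.81, 1.16 and 1.80, with 3 and 4 arrays above background. Every hCNR1_cKO array lay above every hCNR1_WT array by more than the spread within either group (3.17 ± 0.35 SE, limma adjusted p = 0.00504).

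Zfp995 read -1.33, -1.08, -3.38 and -2.58 in hCNR1_WT and 0.76, 0.61, 1.16 and 2.52 in hCNR1_cKO. Its hCNR1_WT arrays fell into a brighter pair, replicates 1 and 2, and a dimmer pair that was not above background, and all 4 lay below the hCNR1_cKO arrays (3.35 ± 0.57 SE, limma adjusted p = 0.0203). Zfp943 was the only one of the 5 well above background on all 8 arrays and read -0.94, -1.15, -2.11 and -1.40 against 0.29, 0.55, 1.23 and 1.72. Its groups did not overlap (2.35 ± 0.37 SE, limma adjusted p = 0.0165). Zfp948 read -2.14, -2.46, -3.58 and -2.41 against -0.97, -0.73, 0.04 and -0.59, with 1 hCNR1_WT array and 4 hCNR1_cKO arrays above background. The readings of the groups did not overlap, but 3 of the 4 hCNR1_WT readings were not above background and have no order among themselves (difference of measured means 2.09 ± 0.35 SE, limma adjusted p = 0.0196).

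Not every gene of the cluster rose. Zfp53, the first of its tested genes in gene order, read -0.84, -0.72, -1.07 and -1.09 in hCNR1_WT and -5.18, -4.02, -3.06 and -1.61 in hCNR1_cKO. The order of its groups was opposite to that of the genes that rose. All 4 hCNR1_WT arrays and no hCNR1_cKO array were well above background, which gives a level at least 2.42-fold lower in hCNR1_cKO, but the difference of -2.54 ± 0.63 SE did not pass (limma adjusted p = 0.0533). Without the dim hCNR1_cKO replicate 4 Zfp53 was among the genes called lower. Zfp944 read -0.69, -0.63, -0.46 and -0.64 against -0.52, -0.35, -0.10 and -1.59, and its groups overlapped (-0.03 ± 0.31 SE, limma adjusted p = 0.963). Its hCNR1_cKO replicate 4 was lowest, and hCNR1_cKO replicate 1 also lay below hCNR1_WT replicate 3.

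Of the 11 cluster genes with a probe but below the filter, Zfp51 and Zfp994 were well above background on 0 hCNR1_WT and 3 hCNR1_cKO arrays each. Zfp51 read -3.77, -2.50, -4.10 and -3.95 in hCNR1_WT and -1.67, -0.28, -0.66 and -0.98 in hCNR1_cKO, and Zfp994 read -4.21, -1.95, -5.04 and -3.91 against -1.79, -1.77, -1.23 and -0.97. Zfp758 was above on 1 and 2 arrays, Zfp945 on 0 and 2, Zfp54 on 1 and 1, Zfp52 and Zfp677 on 1 hCNR1_WT array each, and Zfp229, Zfp760, Zfp820 and Zfp983 on none. These genes were not tested.

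**Figure D1:**
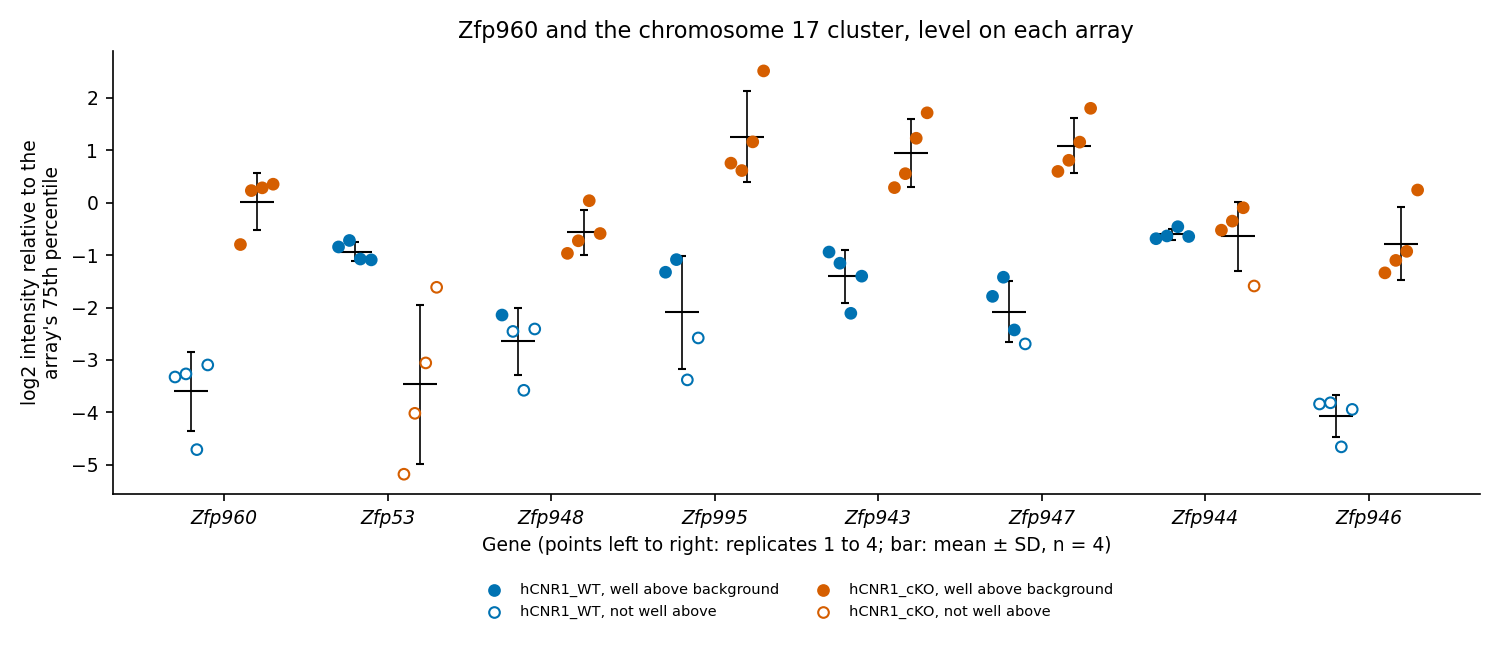
Level of Zfp960 and the 7 tested genes of the chromosome 17 cluster on each array, as log2 intensity relative to the array's 75th percentile (vertical axis), by gene in chromosome order (horizontal axis). Blue is hCNR1_WT and orange hCNR1_cKO, filled points are well above background and open points are not, and bars give the mean ± SD of 4 arrays. In 6 genes all hCNR1_cKO points lie above all hCNR1_WT points, in Zfp53 the order is reversed, and the groups of Zfp944 overlap.

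Zfp960 lies before the cluster, apart from it by more than 10 genes, and was called higher. It read -3.32, -3.27, -4.71 and -3.09 in hCNR1_WT, where no array was well above background, and -0.80, 0.23, 0.28 and 0.35 in hCNR1_cKO, where all 4 were, so its level was at least 5.90-fold higher (difference of measured means 3.62 ± 0.40 SE, limma adjusted p = 0.00504). The tested genes around it and around the cluster did not follow, a comparison chosen after the values were seen. Of the 10 tested genes on each side of the cluster only Zfp960 was called, and the 20 had a median difference of -0.07. The nearest before the cluster were Riok2 (0.05) and Ppp2r1a (-0.14), and the nearest after it were 6330415G19Rik (-0.11) and Zfp213 (0.00). With Zfp960, chromosome 17 held 6 of the 13 Zfp genes called higher and 17 of the 185 tested.

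**Figure D2:**
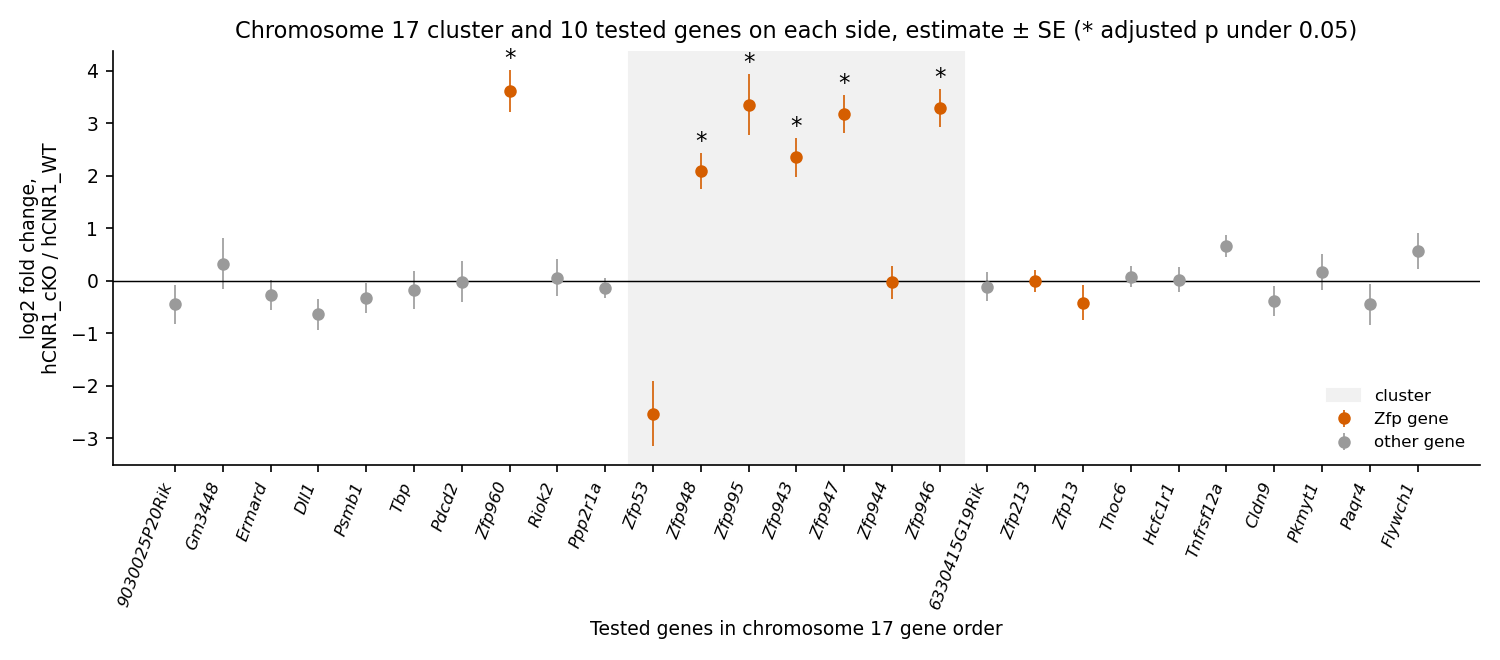
log2 fold change ± SE of hCNR1_cKO over hCNR1_WT (vertical axis) for the tested genes of the chromosome 17 cluster (shaded) and 10 tested genes on each side, evenly spaced in gene order (horizontal axis). Orange points are Zfp genes, grey points other genes, and an asterisk marks an adjusted p under 0.05. The called genes, at 2.09 to 3.62, are Zfp genes, while the other genes lie between -0.64 and 0.66.

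On other chromosomes 7 further Zfp genes rose. Zfp800 on chromosome 6 read -2.08, -1.90, -3.17 and -3.48 in hCNR1_WT and -0.13, -0.08, 0.44 and 0.34 in hCNR1_cKO, with hCNR1_WT replicates 3 and 4 not above background and no overlap (2.80 ± 0.37 SE, limma adjusted p = 0.0108). It kept an adjusted p under 0.05 whichever array was left out. Zfp534 on distal chromosome 4 read -3.53, -2.73, -4.87 and -4.14 against -1.12, -1.13, -0.51 and 0.76 and was above background in hCNR1_cKO alone, at least 4.12-fold higher (measured difference 3.32 ± 0.53 SE, limma adjusted p = 0.0173). Zfp770 on chromosome 2 read -2.81, -3.90, -4.45 and -2.27 against -0.75, -1.40, -0.70 and -1.12, with 1 and 3 arrays above background and the hCNR1_WT readings, 3 of them not above background, spread over more than 2 log2 units (2.37 ± 0.45 SE, limma adjusted p = 0.0277).

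Zfp740 on chromosome 15 read -2.14, -2.72, -2.62 and -3.18 against -1.72, -1.36, -0.95 and -0.31 (1.58 ± 0.34 SE, limma adjusted p = 0.0376). Its groups did not overlap, the nearest arrays being hCNR1_WT replicate 1 and hCNR1_cKO replicate 1, and hCNR1_WT replicates 2 and 4 were not above background. Zfp260, described in heart as a partner of Gata4, read 1.29, 0.86, 0.57 and -0.32 against 2.08, 1.85, 2.49 and 2.30 and was above background on all 8 arrays (1.58 ± 0.34 SE, limma adjusted p = 0.0376). Zfp282, the mouse counterpart of the KRAB protein HUB1, read 3.78, 3.44, 3.83 and 3.89 against 4.65, 4.85, 4.76 and 5.60, also on all 8 arrays and with no overlap (1.23 ± 0.25 SE, limma adjusted p = 0.0334). The other passing probe of Zfp282 gave a smaller difference, 0.45.

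Distal chromosome 2 held a called gene in each direction. Zfp931 read -3.40, -3.21, -4.40 and -4.33 in hCNR1_WT, where no array was above background, and -1.63, -1.75, -1.67 and -0.44 in hCNR1_cKO, where all 4 were, at least 2.25-fold higher (measured difference 2.46 ± 0.39 SE, limma adjusted p = 0.0166). Zfp967 read -1.21, -0.87, -1.16 and -0.31 against -1.61, -2.60, -2.33 and -2.94 and was called lower (-1.49 ± 0.32 SE, limma adjusted p = 0.0388). Its 2 passing probes disagreed, however: the second read -2.50, -2.75, -3.02 and -1.48 in hCNR1_WT and -1.66, -1.34, -1.58 and -0.48 in hCNR1_cKO, a difference of 1.17, so that no direction is given for the gene. Among the tested genes in between, chosen after the values were seen, Gm14322 (2.44, limma adjusted p = 0.0279) and Gm14326 (2.11, limma adjusted p = 0.0284) rose and Gm14325 was at -0.01. Of the 20 tested genes beside this stretch, 10 before and 10 after, 3 were called higher (15%, against 2.94% of all genes) and 0 lower. These were Gm14393 (2.38), Gm14391 (1.96) and Gm14288 (1.00). Gm14393 and Gm14391 were each above background on 1 hCNR1_WT and 4 hCNR1_cKO arrays, and Gm14288 on all 8. For Gm14322, Gm14393 and Gm14391 passing the filter thus rested mainly on the hCNR1_cKO arrays, where they were high. The genes of these clusters are close copies, the probe sequences were not used here, and how far a probe also reads a neighbouring copy was not tested.

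With all 8 arrays above background, 2 Zfp genes fell. Zfp488, a zinc finger protein that promotes oligodendrocyte differentiation with Olig2, read 2.63, 2.53, 2.09 and 2.40 in hCNR1_WT and 0.10, 0.09, -0.18 and -0.27 in hCNR1_cKO, a tight pair of groups whose means lay more than 2 log2 units apart (-2.48 ± 0.21 SE, limma adjusted p = 0.00398). It kept an adjusted p under 0.05 whichever array was left out. Zfp263, a protein with SCAN and KRAB domains, read 2.31, 2.21, 1.87 and 2.58 against 1.05, 1.04, 0.87 and 0.21 (-1.45 ± 0.26 SE, limma adjusted p = 0.0229). Its groups did not overlap, with hCNR1_cKO replicate 4 lowest.

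**Figure D3:**
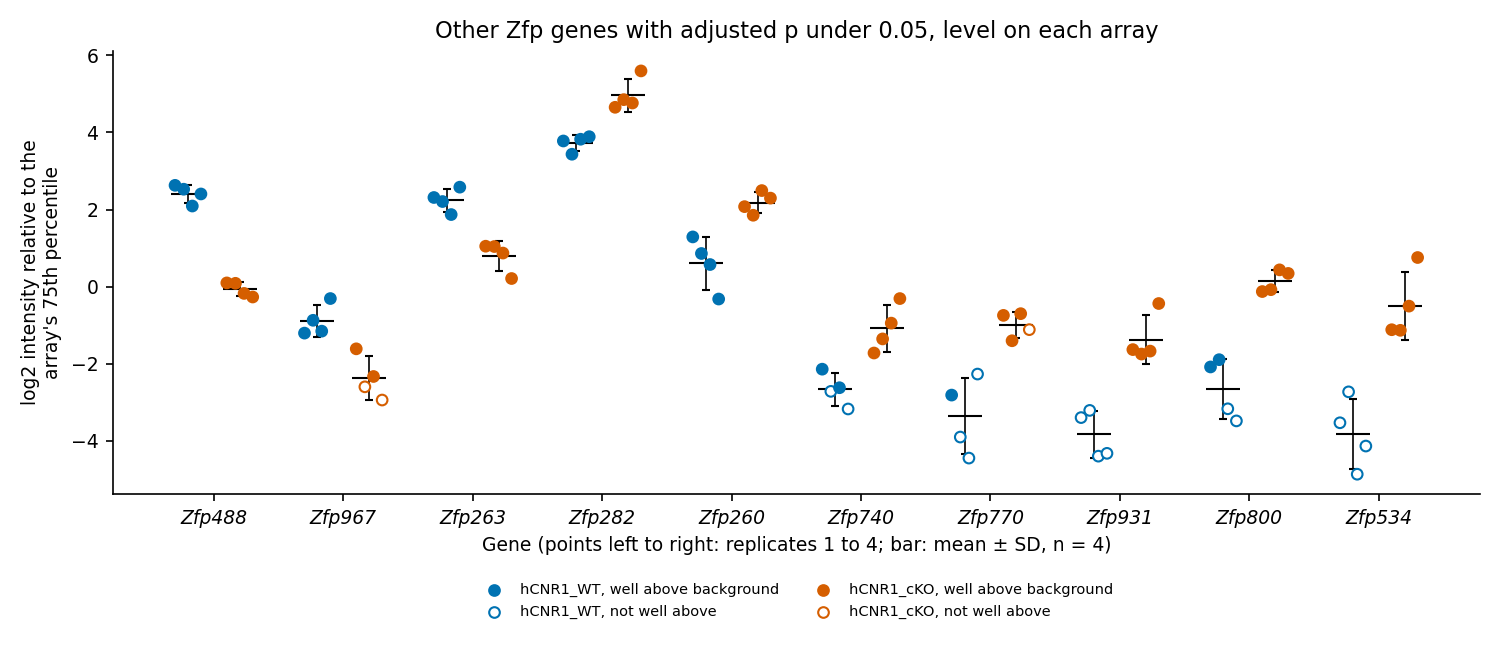
Level on each array of the 10 Zfp genes with an adjusted p under 0.05 that lie elsewhere than Zfp960 and the chromosome 17 cluster, as log2 intensity relative to the array's 75th percentile (vertical axis), ordered by difference (horizontal axis). Colours, fills and bars are hCNR1_WT in blue, hCNR1_cKO in orange, open points not well above background, and mean ± SD of 4 arrays. The groups of all 10 genes are separate, and Zfp931 and Zfp534 have no filled hCNR1_WT point.

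Over all 185 genes 13 (7.03%) were higher and 3 (1.62%) lower at adjusted p under 0.05, Zfp967 among the latter by 1 of its 2 probes, where 2.94% of all genes were called higher and 1.3% lower. By a difference of more than 2-fold with an unadjusted p under 0.05, 25 (13.5%) were higher against 4.78% of all genes, and 7 (3.78%) were lower against 3.75%. The groups did not overlap for 32 genes higher in hCNR1_cKO (17.3%, background 12.7%) and for 15 lower (8.11%, background 5.04%), and for such a gene the two-sided exact permutation test over arrays gives p = 0.0286, the smallest it can give. The median difference was 0.05, against 0.08 over all genes, and 100 genes (54.1%) were above 0 against 56.6% of all genes. Outside chromosome 17 the counts were 7 (4.17%) higher and 3 (1.79%) lower of 168, nearer the 2.94% and 1.3% of all genes. By the 2-fold rule 11.3% of the 168 were higher and 3.57% lower. For most of the genes called higher, passing the filter was not independent of the difference, as set out below.

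These counts depended on single arrays and on how arrays were scaled. Without hCNR1_WT replicate 3 and without hCNR1_cKO replicate 3 the number called higher was 4 each time, namely Zfp800, Zfp946, Zfp947 and Zfp960, and without hCNR1_cKO replicate 1 it was 8. Without hCNR1_cKO replicate 4 it was 16 (8.65%, against 10.1% of all genes), so the share higher was not above that of all genes. The number called lower was then 12 (6.49%) rather than 3, with 323 of all 11072 genes lower. The 4 called higher were 2.16% of the Zfp genes, against 0.117% and 0.217% of all genes in those fits. The 8 were 4.32%, against 0.397%. The number lower was 1, Zfp488, without hCNR1_WT replicate 1, 2 or 3 or hCNR1_cKO replicate 2 or 3. With 1 array left out, Zfp282 kept an adjusted p under 0.05 only without hCNR1_cKO replicate 4, Zfp740 only without that array or hCNR1_WT replicate 1, and Zfp260 and Zfp770 only without either of these or hCNR1_WT replicate 4. Zfp943, Zfp948, Zfp534 and Zfp931 lost it without replicate 3 of either genotype, and Zfp995 also without hCNR1_cKO replicate 1. Zfp263 kept it only without replicate 4 of either genotype, and Zfp967 only without hCNR1_cKO replicate 1 or 4. With the 75th percentile taken over probes above background on all arrays 10 were higher and 5 lower, and with no scaling 1 and 1. Of all 11072 genes 101 were higher and 209 lower in the first of these fits, and 1 and 29 in the second. None of the 16 called genes changed direction under any of the 20 other settings in which it was tested.

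**Figure D4:**
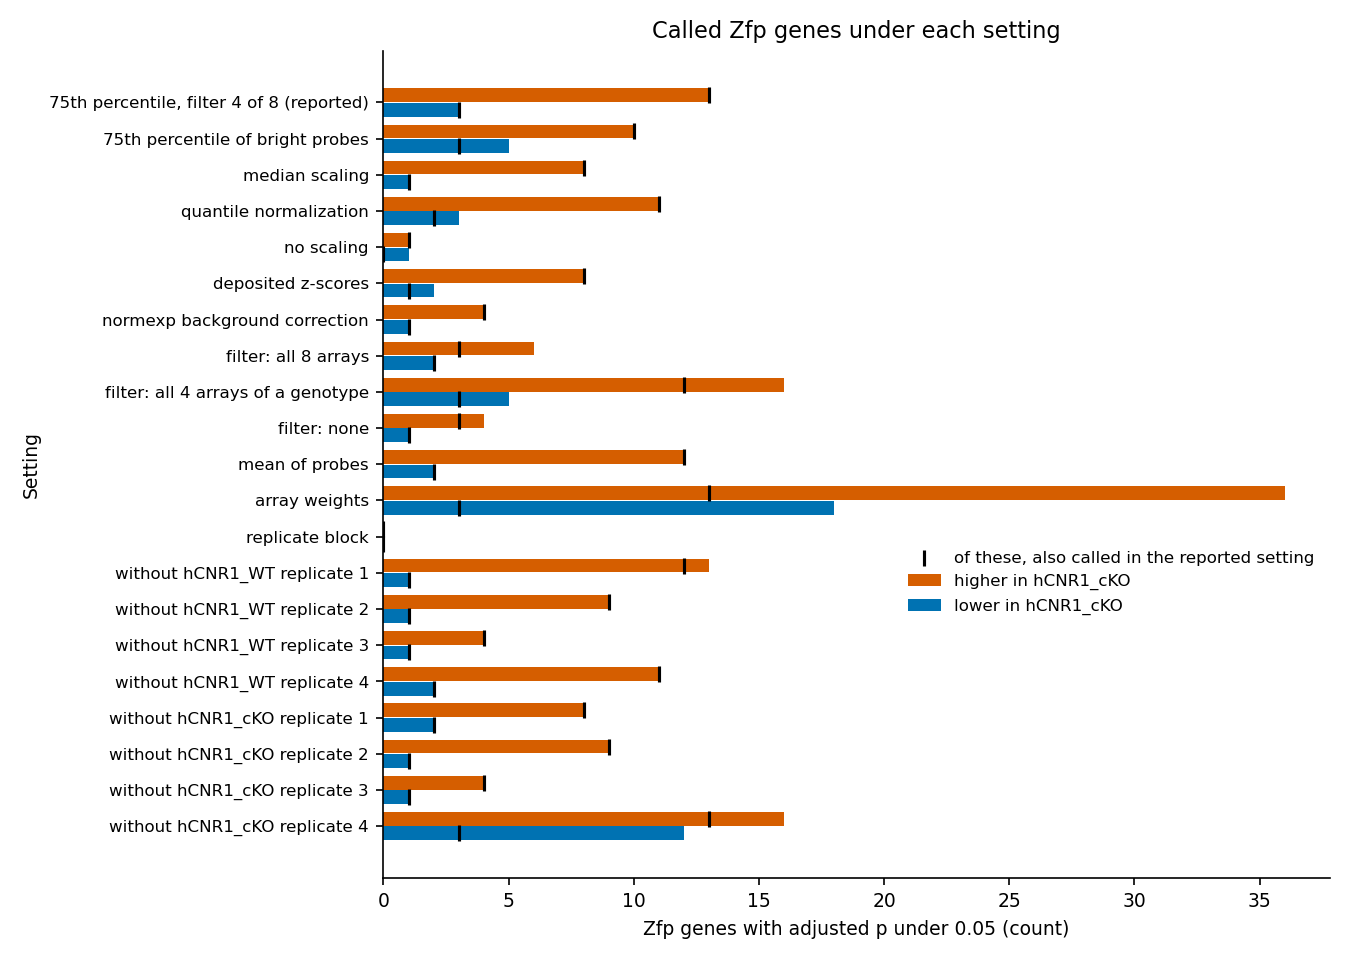
Number of Zfp genes with an adjusted p under 0.05 (horizontal axis) under the reported setting and 20 others (vertical axis), orange for higher and blue for lower in hCNR1_cKO, with black ticks for those also called in the reported setting. The count of higher genes runs from 0 with a replicate block to 36 with array weights, and is 4 without replicate 3 of either genotype.

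For some genes passing the filter was not independent of the difference. Among the 185, 4 genes (Zfp960, Zfp946, Zfp534 and Zfp931) passed on the hCNR1_cKO arrays alone and 1 (Zfp53) on the hCNR1_WT arrays alone, and such a gene had to differ. Zfp947, Zfp948, Zfp995, Zfp800, Zfp740 and Zfp770, also called higher, were above background on fewer hCNR1_WT than hCNR1_cKO arrays. None of these was above background on all hCNR1_WT arrays, so their passing also rested on hCNR1_cKO arrays. The genes on exactly 4 arrays were 14, with mean levels from -2.63 to -1.75 (median -2.17), and 15 genes just outside the rule stood on exactly 3, with mean levels from -3.42 to -2.19 (median -2.57). With the filter set to all 8 arrays, 97 Zfp genes were tested: 6 (6.19%) rose against 4.07% of all 8371 genes, and 2 (2.06%) fell against 0.645%. Zfp943, Zfp260 and Zfp282 stayed among the 6, which also held Zfp24, Zfp664 and Zfp68.

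**Figure D5:**
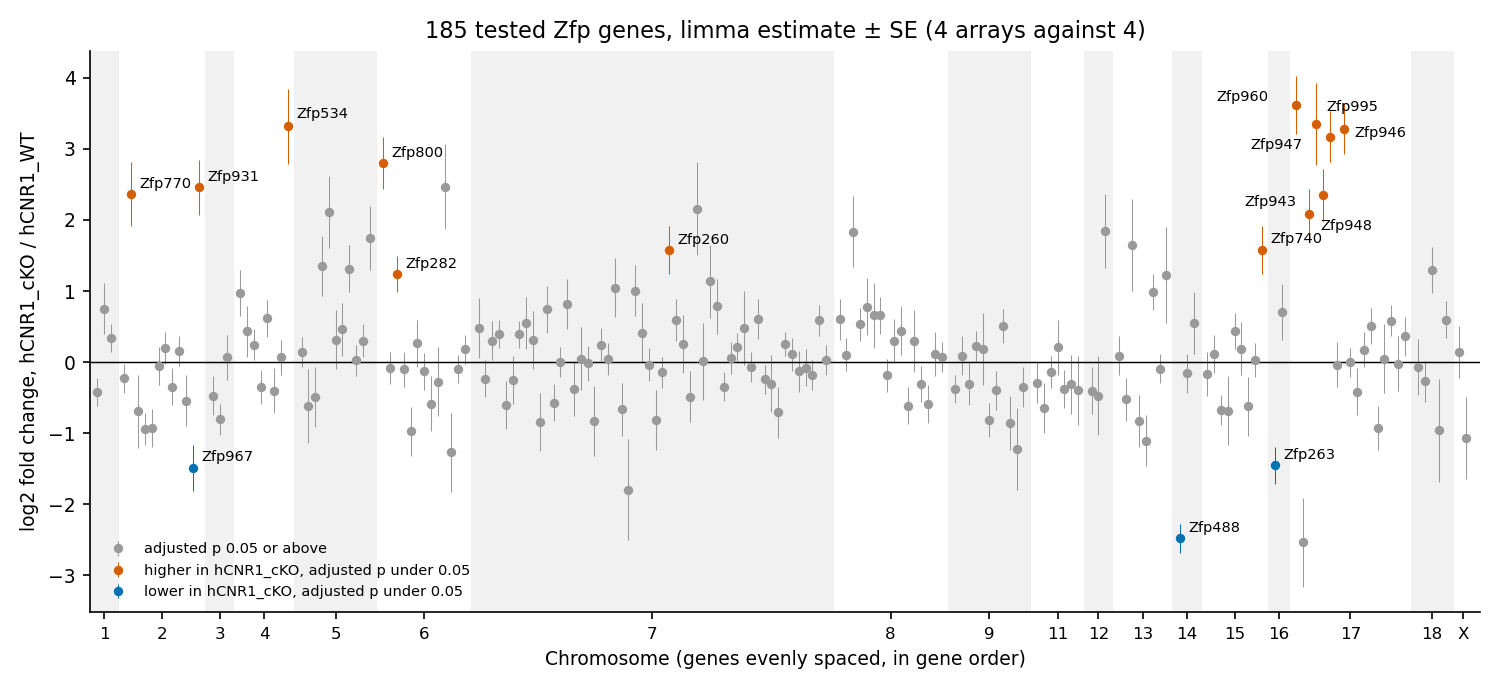
log2 fold change ± SE of hCNR1_cKO over hCNR1_WT (vertical axis) for the 185 tested Zfp genes, evenly spaced in gene order within each chromosome (horizontal axis). Orange points were higher and blue points lower at an adjusted p under 0.05, and grey points were not called. Chromosome 17 holds 6 of the 13 orange points, and chromosome 7, with 52 genes, holds 1.

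By the same definition 11 clusters had at least 3 tested genes, 55 genes in all, and outside the chromosome 17 cluster 2 of the 48 were higher, Zfp282 and Zfp260, a share (4.17%) near the 2.94% of all genes, and 0 were lower by limma (2 by the 2-fold rule), against 1.3%. The chromosome 6 cluster of Zfp282 had a median difference of -0.10 over 7 genes: Zfp398 (-0.08), Zfp282 (1.23), Zfp212 (-0.10), Zfp783 (-0.97), Zfp956 (0.26), Zfp777 (-0.13) and Zfp746 (-0.59). The chromosome 7 cluster of Zfp260 had a median of 0.19 over 8 genes and ranged from -1.80 for Zfp84 to 1.58 for Zfp260. Zfp84 there read -0.80, 1.55, -0.79 and -0.43 against -2.71, -1.81, -3.04 and -0.09, with hCNR1_WT replicate 2 far above the rest and overlapping groups (limma adjusted p = 0.180). Zfp568, known for repressing a placental transcript of Igf2, lies in the same cluster and was at 0.41 ± 0.41 SE. The remaining members there were Zfp790 (1.00), Zfp146 (0.59), Zfp14 (-0.04), Zfp566 (-0.15) and Zfp82 (-0.82).

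The other 8 clusters had medians from -0.31 to 0.78 and no gene called at adjusted p under 0.05. On chromosome 8 the difference was 1.84 for Zfp930, 0.78 for Zfp866 and 0.53 for Zfp869, all above 0. Zfp930 there read -0.79, -0.97, -2.74 and -2.58 against -0.39, -0.34, 0.16 and 0.85, without overlap (limma adjusted p = 0.0701). On chromosome 13, where 18 of 19 clustered Zfp symbols had a probe and 3 were tested, Zfp457 was at -1.10, Zfp87 at -0.09 and Zfp429 at 0.99. The 2 passing probes of Zfp457 gave -1.10 and 2.08. On chromosome 7 the 7 genes from Zfp553 to Zfp689 had a median of -0.07 and a range of -0.71 to 0.60, the 6 from Zfp628 to Zfp580 a median of 0.03, the 5 from Zfp180 to Zfp93 a median of -0.01, and Zfp787, Zfp444 and Zfp667 a median of 0.39. The cluster on chromosome 15 had a median of 0.03 and that on chromosome 9 a median of -0.31, each over 3 genes.

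Several genes passed the 2-fold rule but not the adjusted p. Zfp638, an RNA- and DNA-binding protein linked to silencing of unintegrated retroviral DNA, read -0.78, -0.95, -2.07 and -3.67 in hCNR1_WT and 0.01, 0.29, 0.92 and 1.18 in hCNR1_cKO. The groups did not overlap, but hCNR1_WT ran over almost 3 log2 units (2.47 ± 0.59 SE, limma adjusted p = 0.0507). The other largest were Zfp976 (2.16 ± 0.65 SE), Zfp664 (2.11 ± 0.51 SE) and Zfp386 (1.84 ± 0.52 SE), and on the lower side Zfp53, Zfp84, Zfp457 and Zfp422 (-1.27 ± 0.55 SE, limma adjusted p = 0.222). Zfp664 was highest on the dim hCNR1_cKO replicate 4 (3.29, 3.17, 3.68 and 5.77 in hCNR1_cKO), and its second probe gave -0.42.

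Among the members with well described roles, 21 of 27 on the list were tested, 10 were below 0, and none was called. Over all genes 2.94% were called higher and 1.3% lower, and 56.6% were above 0, so no call among 21 is near that share. Zfp57 and Zfp445, which protect imprinting marks, were at -0.02 ± 0.38 SE and -1.22 ± 0.58 SE. Zfp445 read 0.08, 0.83, -1.14 and -1.68 against -0.95, -1.63, -1.38 and -2.84, with wide and overlapping groups (limma adjusted p = 0.259). Zfp809, which silences proviruses through their tRNA primer binding site, read -0.05, -0.93, -0.76 and -0.76 against -1.17, -1.44, -1.56 and -1.61, without overlap but short of the threshold (-0.82 ± 0.24 SE, limma adjusted p = 0.089). Zfp36 (tristetraprolin), which drives decay of AU-rich mRNAs, read 1.28, 2.02, 2.36 and 2.31 against 1.16, 2.10, 1.54 and 0.51, and its groups overlapped (-0.66 ± 0.37 SE, limma adjusted p = 0.335).

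Among factors in transcription, Zfp148 was at 0.70 ± 0.40 SE, Zfp281 at 0.75 ± 0.35 SE, Zfp143 at 0.48 ± 0.52 SE, and Zfp423, known from adipocyte commitment, at 0.44 ± 0.34 SE. Zfp335, Zfp384, Zfp318 and Zfp467 were at 0.20, 0.18, 0.36 and -0.28. Zfp410, an activator of Chd4, read 2.01, 2.03, 1.82 and 1.93 against 2.23, 1.99, 2.18 and -0.51, so that its difference of -0.47 rested on hCNR1_cKO replicate 4. Zfp106 and Zfp217 were at -0.69 and -0.54. Of those that act on RNA, ribosomes or the spindle, Zfp598, the ubiquitin ligase that senses collided ribosomes, was at 0.18 ± 0.25 SE, Zfp622, a factor in maturation of the large ribosomal subunit, at -0.17 ± 0.31 SE, Zfp346 at -0.53 and Zfp207 at 0.21. Zfp42, Zfp91, Zfp292, Zfp451, Zfp462 and Zfp932 were not tested, and of these Zfp451 was above background on 3 hCNR1_WT arrays and no hCNR1_cKO array.

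Of the genes with more than 1 passing probe, 39 in all, 15 had probes on both sides of 0 and 7 had probes more than 1 log2 unit apart: Zfp113, Zfp318, Zfp457, Zfp592, Zfp655, Zfp664 and Zfp967. Zfp655 had the widest gap, from -2.94 to 1.75. Of the called genes, Zfp967 and Zfp282 had more than 1 passing probe.

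The partners of KRAB proteins were followed by a list of 36 corepressor genes, of which 31 were tested and 23 were above 0 with a median difference of 0.29. With no scaling 9 of the 31 were above 0 and the median was -0.27, so no direction is given for the list. Chd4, the remodeller of the NuRD complex, was the one called, at 1.09 (limma adjusted p = 0.0303). This 1 call is 3.23% of the 31, near the 2.94% of all genes called higher. It was lost under median scaling (limma adjusted p = 0.577) and in 6 of the 8 fits that left out an array. Trim28 was at 0.29 and Setdb1 at 0.07, with limma adjusted p = 0.444 and 0.940. Among other zinc finger families, none of 24 Zbtb, 14 Zscan and Zkscan and 14 Klf genes was called by limma, and 0, 0 and 2 of them were lower and 1, 1 and 0 higher by the 2-fold rule. Over all genes 2.94% were called higher and 1.3% lower by limma, and 4.78% and 3.75% by the 2-fold rule. Of 13 genes named Zfp with a further letter 3 were higher (23.1%, against 2.94% of all genes): Zfp955a (2.29) and Zfp119b (1.53) on chromosome 17 and Zfp280d (1.56). Each of the 3 was well above background on 1 hCNR1_WT array, and the count was 0 by limma without hCNR1_WT replicate 3, without hCNR1_cKO replicate 3, with median scaling, no scaling, z-scores, normexp, no filter, the filter on all 8 arrays and the replicate block, with 0 to 4 higher by the 2-fold rule.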

How the data were processed

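Total RNA of isolated hepatocytes was hybridised, Cy3-labelled, to 1-colour Agilent arrays. The authors deposited, for each of the 8 arrays, a Feature Extraction 12.0.3.1 scanner table and a value table. From the scanner tables the processed signal (intensity, background-subtracted by the software, not normalized between arrays) and the flags for well above background and outliers were used. The authors also deposited value tables that hold a score per probe, the log intensity as a z-score within its array. No column of per-sample values went unused for want of a sample.

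Control spots and outlier spots were left out, spots of 1 probe were averaged, and the log2 processed signal was set relative to each array's 75th percentile over non-control spots. Probes were named by RefSeq accession: 28331 of 55681 probes matched, to 21368 genes. A gene entered the test when the background flag was passed by 1 of its probes on 4 or more of the 8 arrays, and the brightest such probe stood for it. The test was limma 3.58.1 in R 4.3.3 (2 groups, Benjamini-Hochberg over 11072 genes), since the methods used here do not name the test behind the study's threshold of 2-fold and p under 0.05, which is given beside it. No probe was saturated on any array. A probe not well above background on any array of a group has only a bound there, from each array's lowest signal among probes well above background. Where the probe's own reading was higher, that reading was used. Other probes without the flag could read above that lowest signal, so the bounds are approximate and carry no error. Gene order came from RefSeq (GRCm38.p6), as the array's design uses another build. The fit was tested on simulated data with known changes. The number of arrays, 4 a group, limits the precision.

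The Zfp genes and the lists of roles, corepressors and cell type markers were chosen with earlier results of these data known. Named were the Zfp genes with adjusted p under 0.05 (up to 12 each way), the next 4 each way past 2-fold and p under 0.05, the role list, and the tested genes of clusters with at least 3. Endothelial, stellate cell, lymphocyte, cholangiocyte and neutrophil markers tested were 9 of 12, 2 of 12, 3 of 12, 4 of 8 and 1 of 8, with 0 called by limma in each list and 0 at 2-fold and unadjusted p under 0.05. Alternatives were the scaling (75th percentile of probes above background on all arrays, median, quantile, none, z-scores), normexp background correction with offset 50, the filter, the mean of probes, array weights, a replicate block, the cluster gap (5 or 20 genes) and leaving out each array.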

Additional observations from a re-analysis of the deposited data

Results flagged for a closer look

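For the 88 named Zfp genes, each genotype's 4 arrays were examined for 1 array far from the other 3 by Dixon's test, 176 groups in all. Chance alone would pick about 1 in 20 groups, and 19 were picked, 13 of them for hCNR1_cKO replicate 4, the dimmest array. On that array the level was -2.20 for Zfp143, -2.40 for Zfp235, -1.37 for Zfp346, -0.51 for Zfp410, -2.56 for Zfp422, -0.68 for Zfp7, 1.41 for Zfp747, -3.05 for Zfp82, -2.91 for Zfp846 and -2.16 for Zfp93, each below the other 3 hCNR1_cKO arrays. It was above the other 3 for Zfp423 (-0.15), Zfp57 (0.67) and Zfp931 (-0.44). Of these 13 genes Zfp931 is the only one with a limma adjusted p under 0.05, and its call was the same without that array.

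In hCNR1_WT, Zfp946 (-4.66), Zfp960 (-4.71) and Zfp384 (-2.34) were lowest on replicate 3, while on replicate 2 Zfp398 was low (-1.0) and Zfp84 high (1.55). The hCNR1_WT readings of Zfp946 and Zfp960 were not above background. In hCNR1_cKO, Zfp960 was low on replicate 1 (-0.80). Zfp946 and Zfp960 kept a limma adjusted p under 0.05 when each of these arrays was left out.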

How the results depend on the processing

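The number of Zfp genes called at adjusted p under 0.05, reported as 3 lower and 13 higher, was 5 lower with the 75th percentile of probes above background on all arrays, 1 and 8 with median scaling, 1 and 1 with no scaling, 8 higher with z-scores, 1 and 4 with normexp, 6 higher with the filter on all 8 arrays, 5 lower with the filter on all 4 arrays of a genotype, 1 and 4 without a filter, and 18 and 36 with array weights. At 2-fold and unadjusted p, reported as 7 lower and 25 higher, it was 15 lower with the bright-probe percentile, 13 and 12 with no scaling, 2 and 7 with normexp, and 3 and 8 with the filter on all 8 arrays. The calls over all genes changed with the setting as well. Adjusted calls higher were 4.32% of Zfp genes with median scaling (0.226% of all genes) and 0.541% with no scaling (0.00903%). They were 4.32% with z-scores (0.271%) and 2.16% with normexp (0.253%). All genes called lower numbered 209 with the bright-probe percentile, 25 with median scaling, 29 with no scaling and 13 with normexp. With array weights the adjusted calls higher were 19.5% of Zfp genes and 19.7% of all genes. The calls lower were 9.73% of Zfp genes, with 646 of all 11072 genes lower. With 1 array left out the adjusted counts ran from 1 to 12 lower and from 4 to 16 higher, and the 2-fold counts stayed within 1.5 times the reported ones. The median difference of the Zfp genes, 0.05, was -0.11 with the bright-probe percentile, -0.51 with no scaling, -0.086 with z-scores and 0.18 without a filter, while that of all genes was 0.08 and went to -0.08, -0.47, -0.02 and 0.23.

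Of the 5 chromosome 17 cluster genes called higher, the count was 0 with no scaling, 2 with normexp, 1 with the filter on all 8 arrays (where 1 of the 5 was tested), 2 without a filter, and 2 to 5 with 1 array left out. With at most 5 other genes between neighbours the cluster split, and 2 of the 3 tested genes in the piece of Zfp947, Zfp944 and Zfp946 and 3 of the 4 in the other piece were called. With at most 20 the cluster also took in Zfp213 and Zfp13, neither of them called. It then had 5 of 9 tested genes called higher (55.6%) and a median difference of 2.09. The 5 genes kept their direction under every setting that tested them. Zfp664 turned to -0.35 with normexp and Zfp457 to 0.49 with the mean of its probes.

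The replicate numbers are slide columns, not shared animals, and the correlations of same-numbered arrays' deviations were 0.21, -0.16, -0.05 and 0.02. With a replicate block the counts were 0 lower and 0 higher by limma at adjusted p under 0.05 (17 and 33 at unadjusted p under 0.05), and 0 in the chromosome 17 cluster. None of all 11072 genes was called in that fit. The cause of these shifts was not tested. Zfp levels near each array's background are bounds rather than measurements.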
